A study of Rattus norvegicus with 12 samples.

Results

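The milk protein genes examined here were the caseins Csn1s1, Csn1s2a, Csn2 and Csn3 and the whey protein genes Lalba and Wap. They were taken by gene symbol, 6 of 26456 genes on the array, and each was measured by 1 of the 30367 gene probes. The filter on dim probes passed 5 of these probes, which were tested. The Csn2 probe was not well above background on any array. Total RNA of the lumbar mammary gland of female Wistar rats was hybridised to 12 one-colour Agilent arrays, 1 array per rat and 3 rats per group. The LP groups were offspring of dams fed 8.8% protein throughout pregnancy, and the NP groups were offspring of dams fed 17.0% protein. Glands were taken on day of life 21, when the rats had suckled until that day, or on day 28, a week after weaning. In all 4 groups, named NP day 21, LP day 21, NP day 28 and LP day 28, litters had been reduced at birth to 6 females and standard chow was given during lactation and after weaning. The rats were juvenile and had not been pregnant, and visible lymph nodes had been removed from the glands. The labels do not say whether rats of a group came from different litters, so p-values measure the spread between these rats. All day 21 arrays were on 1 slide and all day 28 arrays on the other, so that age and slide cannot be told apart.

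Caseins are the main proteins of milk. The calcium-sensitive caseins, encoded by Csn1s1, Csn1s2a and Csn2, bind calcium phosphate, and kappa-casein, encoded by Csn3, coats and stabilises the casein micelle. Lalba encodes alpha-lactalbumin, which with the galactosyltransferase B4GALT1 forms the lactose synthase, and Wap encodes whey acidic protein, a major whey protein of rodents. These genes are expressed by luminal epithelial cells, rise through pregnancy and lactation, and are driven by prolactin acting through its receptor, JAK2 and STAT5, together with glucocorticoids and the factor ELF5. The casein genes lie in 1 cluster. In the RefSeq gene order it began with Csn3, and Csn1s2a, Csn2 and Csn1s1 followed at its other end.

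Each gene's value rested on a single probe of 60 bases, and the start of each probe is shown because it defines what was measured. The first 30 bases of each, 5′ to 3′ and all in lower case, were as follows, with the position of the whole probe on rn4 from the array annotation.
Csn1s1, chr14:21870692-21870751, minus strand: gctgttcttaacaccttcaagcccattgcc
Csn1s2a, chr14:21805308-21805367, minus strand: taattggagtcttttcagtactacttcaga
Csn2, chr14:21853342-21853401, plus strand: tcttccaacaaggtatgcctgttcaagacc
Csn3, chr14:21674877-21674936, minus strand: gtctaccaccattcaagagaaaatgcaatt
Lalba, chr7:137222039-137222098, minus strand: tgatgatgagcttgcggatgacatagtatg
Wap, chr14:87392578-87392637, minus strand: tcttggatccagagagaacataatgctttc
The Csn2 probe thus lay between those of Csn1s2a and Csn1s1. The Csn1s2a probe was printed once on the array and the others were each printed as 2 spots. No gene model of rn4 was used here, so the exon of each probe is not given.

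Promoters are shown for the 3 calcium-sensitive caseins and for Csn3, whose differences between the groups were the widest. They are the 250 bases before the transcription start in RefSeq (GRCr8), 5′ to 3′ on the strand of the gene. Capitals mark TTCNNNGAA, the palindrome that STAT5 and other STAT factors bind, and ATTAGCAT, a run shared by these caseins that was chosen after the sequences were seen.
Csn1s1, chr14:20638850-20639099, minus strand: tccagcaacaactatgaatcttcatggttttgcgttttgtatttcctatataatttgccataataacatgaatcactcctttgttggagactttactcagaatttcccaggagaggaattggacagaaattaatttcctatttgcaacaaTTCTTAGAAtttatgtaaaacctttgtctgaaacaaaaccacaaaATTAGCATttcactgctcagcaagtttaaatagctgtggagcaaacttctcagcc
Csn1s2a, chr14:20574472-20574721, minus strand: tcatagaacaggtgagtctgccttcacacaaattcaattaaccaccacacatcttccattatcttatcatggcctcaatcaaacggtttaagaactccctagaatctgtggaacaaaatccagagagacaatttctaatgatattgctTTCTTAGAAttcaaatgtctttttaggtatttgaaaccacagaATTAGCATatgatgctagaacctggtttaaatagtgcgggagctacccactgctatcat
Csn2, chr14:20601574-20601823, plus strand: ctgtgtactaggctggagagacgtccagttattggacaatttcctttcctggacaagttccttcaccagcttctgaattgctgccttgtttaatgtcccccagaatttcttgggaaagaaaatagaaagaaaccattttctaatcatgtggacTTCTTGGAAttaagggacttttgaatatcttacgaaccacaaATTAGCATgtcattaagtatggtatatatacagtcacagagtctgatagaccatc
Csn3, chr14:20439831-20440080, minus strand: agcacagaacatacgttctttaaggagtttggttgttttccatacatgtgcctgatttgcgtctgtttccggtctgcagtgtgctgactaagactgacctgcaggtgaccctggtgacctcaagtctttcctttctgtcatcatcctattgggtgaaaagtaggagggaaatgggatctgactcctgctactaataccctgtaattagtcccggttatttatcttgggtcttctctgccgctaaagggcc
TTCNNNGAA began 100 bases before the start in Csn1s1 (TTCTTAGAA), 102 bases before it in Csn1s2a (TTCTTAGAA) and 97 bases before it in Csn2 (TTCTTGGAA). Searched on both strands, it was in 7.67% of the 33469 promoters of the same length, and ATTAGCAT was in 0.816%. ATTAGCAT began 55 bases before the start in Csn1s1 and Csn2 and 59 bases before it in Csn1s2a. Neither run was in the windows of Csn3, Lalba and Wap. The matches describe these letters only. The Csn2 promoter held both runs, although its probe stayed at background.

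Signals are log2 values relative to the 75th percentile of the gene spots of the same array, so that 0 is the signal at that percentile. The scale compares a gene between rats and not 1 gene with another. Luminal (Krt8, Krt18, Epcam), basal (Krt5, Krt14) and adipocyte (Adipoq, Fabp4) markers were detected: each tested gene of these 3 lists was well above background in 11 or 12 rats. Lymphocyte markers (8 genes, among them Cd3e) averaged -6.19 in the LP day 21 rat 6a and between -1.19 and 0.17 in the other 11 rats. Skeletal muscle markers (8 genes) ranged from -5.07 to 3.02 over the rats. The LP day 21 rat 6a also had the lowest median correlation with the other arrays, 0.96, against 0.974 to 0.989, and the day 21 differences of the members, of the main marker lists and of Prlr and Elf5 are also given without it, as differences of group means. In bulk tissue, fewer cells of a type and less RNA per cell cannot be told apart.

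Between LP and NP rats, the 4 milk protein genes detected in all 12 rats (Csn1s1, Csn3, Lalba and Wap) were higher in LP rats at both days, but 0 of them passed an adjusted p of 0.05. The median of their differences was 1.18 on the log2 scale at day 21, against 0.01 for all tested probes, and 0.96 at day 28, against -0.05. In limma, 0% of the 23209 tested probes passed the adjusted threshold at either day. At an unadjusted p under 0.05, 1 of the 4 genes passed at day 21 (Csn3), where 4.36% of all probes did. At day 28 it was 0 of 4, where 8.07% of all probes did. The values of the LP and NP rats did not overlap, with LP higher, for 2 of the 4 genes at day 28 (Csn1s1 and Wap), against 4.41% of all probes. At day 21 all 4 overlapped, and 5.54% of all probes did not overlap with LP higher. Csn1s2a, the other tested gene, passed the filter on dim probes only with the LP day 28 rats, so it is not counted here and is described on its own. With 3 rats against 3, an exact permutation test cannot give a p below 0.1.

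**Figure D1:**
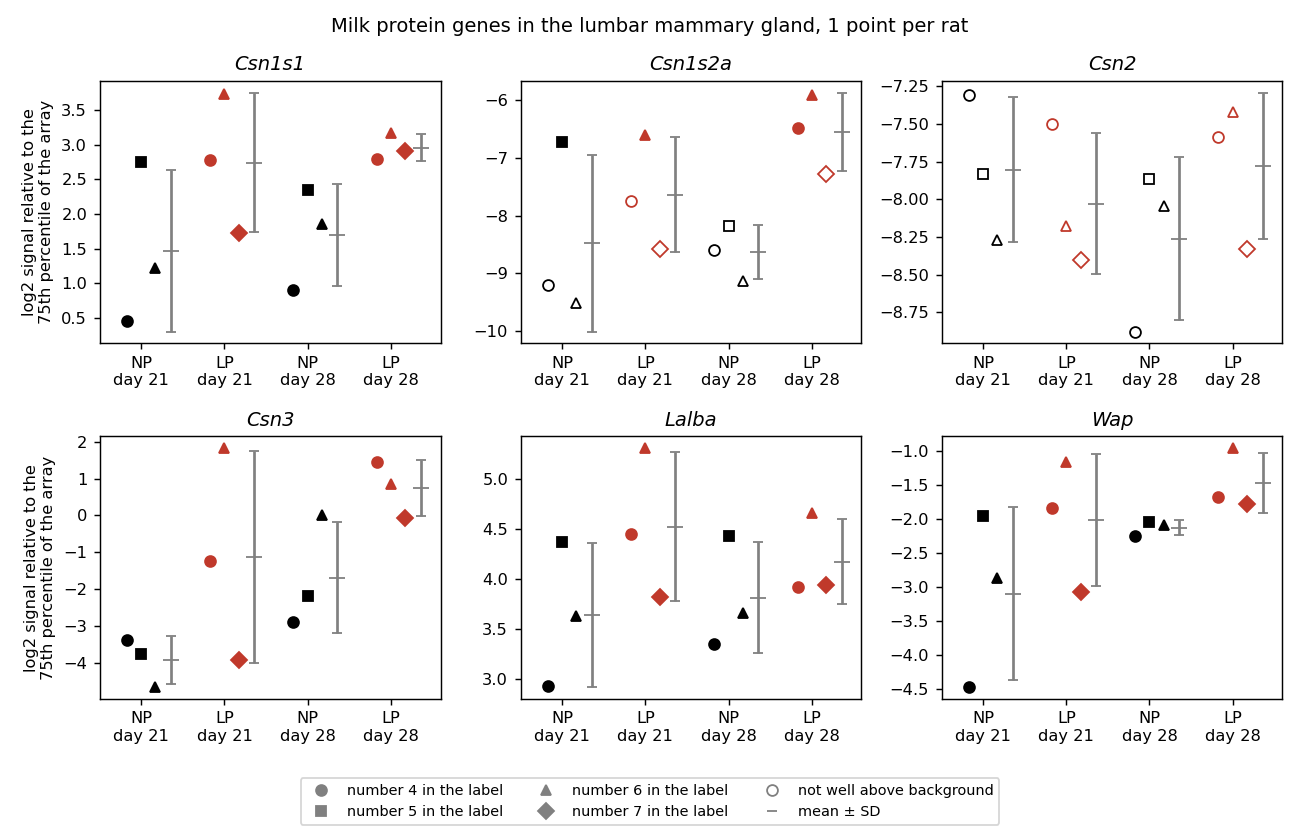
Log2 signal of the 6 milk protein genes in each rat, relative to the 75th percentile of the array, with NP in black and LP in red, symbols by the number in the sample label and open symbols where the probe was not well above background. Grey bars are the mean ± SD of 3 rats. The axes differ between genes. The LP day 28 rats lay above all NP day 28 rats for Csn1s1 (2.80 to 3.17 against 0.90 to 2.35), and all Csn2 symbols are open.

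Among the caseins, Csn3 (kappa-casein) had the widest range over the 12 rats, 6.47 on the log2 scale. Its log2 signal at day 21 was -3.38, -3.76 and -4.65 in NP rats 4a, 5a and 6a, and -1.25, 1.82 and -3.93 in LP rats 4a, 6a and 7c. The NP rats were all low, while the LP rats included the highest value of the series as well as one within the NP range. The means were -3.93 ± 0.65 in NP and -1.12 ± 2.88 in LP rats (SD, n = 3). The difference was 2.81 ± 1.25 (SE), a 7.02-fold higher mean, with a limma p of 0.0479 unadjusted and 0.861 adjusted and an exact two-sided permutation p of 0.3. Without the LP rat 6a it was 1.34, and without the LP rat 7c 4.22. limma draws the SE towards those of other probes, so that this SE and p understate the spread of Csn3 between rats.

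At day 28 the Csn3 signal was -2.88, -2.17 and 0.01 in NP rats 4f, 5f and 6f, and 1.46, 0.86 and -0.06 in LP rats 4f, 6f and 7f. The groups overlapped by a single pair, the highest NP rat lying just above the lowest LP rat. The LP mean was 0.75 ± 0.76 and the NP mean -1.68 ± 1.51 (SD, n = 3), a difference of 2.44 ± 1.25 (SE) with an adjusted p of 0.581 in limma.

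Csn1s1 (alpha-S1-casein) was well above background in every rat. Its signal at day 21 was 0.45, 2.74 and 1.22 in NP rats 4a, 5a and 6a, and 2.78, 3.73 and 1.72 in LP rats 4a, 6a and 7c. The LP rats 4a and 6a lay above all NP rats, and 7c fell among them. The difference was 1.27 ± 0.63 (SE), or 2.41-fold, with an adjusted p of 0.861 in limma. Without the LP rat 6a it was 0.78, without the NP rat 4a 0.76 and without the NP rat 5a 1.91. At day 28 the signal was 0.90, 2.35 and 1.86 in NP rats 4f, 5f and 6f, and 2.80, 3.17 and 2.90 in LP rats 4f, 6f and 7f. The LP rats were close together and all above the NP rats. The difference was 1.26 ± 0.63 (SE), with an adjusted p of 0.581 in limma, and the exact permutation p was 0.1, the smallest the design allows.

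Csn1s2a, an alpha-S2-type casein, was near the limit of detection. Its probe was well above background in 4 of 12 rats, which were the NP day 21 rat 5a, the LP day 21 rat 6a and the LP day 28 rats 4f and 6f. At day 21 the signal was -9.19, -6.72 and -9.52 in NP rats 4a, 5a and 6a, and -7.74, -6.59 and -8.57 in LP rats 4a, 6a and 7c. The groups overlapped, each with a single rat that was detected. The difference was 0.85 ± 0.74 (SE). Without a single rat it ran from 0.33 (without the LP rat 6a or the NP rat 6a) to 1.72 (without the NP rat 5a), so that it rested on signals near background. At day 28 the signal was -8.59, -8.18 and -9.13 in NP rats 4f, 5f and 6f, none of them well above background, and -6.47, -5.91 and -7.27 in LP rats 4f, 6f and 7f, of which the first and the second were. Every LP rat was higher than every NP rat. Since no NP rat was detected, each NP array entered with its detection limit, taken as its dimmest probe that counted as well above background, or with the probe's own signal if brighter. On this basis the LP mean was 2.26-fold higher, with the undetected LP rat 7f entered at its own signal. This fold is not a strict lower bound. In 7f the probe (-7.27) was not detected although it lay above the limit so taken for that array (-7.50). The adjusted p in limma was 0.581. The gene entered the test only because these LP rats were detected, so its p is no separate support for a difference. Background correction with normexp lowered the 2.26-fold value to 1.28-fold.

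Csn2 (beta-casein) gave -8.88 to -7.31 over the 12 rats and was not well above background in any of them, so that no fold was computed. Whether its probe can detect the transcript was not tested. Of the genes within and beside the casein cluster, Odam was well above background in 12 of 12 rats. Csn1s2b, Fdcsp, Sult1d1 and Cabs1 were so in 0.

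Among the whey protein genes, Lalba (alpha-lactalbumin) varied least over the rats of the 5 tested genes, within a range of 2.38 on the log2 scale. Its signal at day 21 was 2.93, 4.37 and 3.63 in NP rats 4a, 5a and 6a, and 4.45, 5.31 and 3.82 in LP rats 4a, 6a and 7c. The highest NP rat lay among the LP rats. The difference was 0.88 ± 0.46 (SE), or 1.84-fold, and 0.49 without the LP rat 6a or 0.53 without the NP rat 4a. At day 28 it was 3.36, 4.43 and 3.66 in NP rats 4f, 5f and 6f, and 3.92, 4.66 and 3.95 in LP rats 4f, 6f and 7f. The groups overlapped and differed by 0.36 ± 0.46 (SE), with an adjusted p of 0.763 in limma. Single rats moved this value widely, to 0.12 without the LP rat 6f, 0.13 without the NP rat 4f and 0.67 without the NP rat 5f.

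Wap (whey acidic protein) was -4.47, -1.96 and -2.86 at day 21 in NP rats 4a, 5a and 6a, and -1.83, -1.16 and -3.07 in LP rats 4a, 6a and 7c. The groups overlapped, and the NP rat 4a was far below the rest. The difference was 1.08 ± 0.61 (SE), or 2.11-fold, but 0.39 without the NP rat 4a, 0.65 without the LP rat 6a and 1.65 without the NP rat 5a. At day 28 the NP rats were almost level at -2.24, -2.04 and -2.09, and the LP rats 4f, 6f and 7f gave -1.67, -0.96 and -1.78. All LP rats were higher, by 0.65 ± 0.61 (SE) on average, with an adjusted p of 0.676 in limma and an exact permutation p of 0.1. Without the LP rat 6f the difference was 0.40.

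Averaged over both days, a comparison chosen after seeing the data, the difference was 2.62 ± 0.88 (SE) for Csn3 and 1.27 ± 0.45 for Csn1s1. It was 0.87 ± 0.43 for Wap and 0.62 ± 0.33 for Lalba. Permuting the diets within each day gave exact two-sided p-values of 0.03 for Csn3 and Csn1s1, 0.07 for Wap and 0.11 for Lalba, with no correction for the number of genes. No difference is given for Csn1s2a in this or any other Results comparison with the NP day 28 rats, none of which had it detected. The normexp and leave-one-out values given later for it among NP rats rest on signals at background. In limma 2 of the 4 had an unadjusted p under 0.05, against 11.9% of all probes. None passed after adjustment, as was so for 0% of all probes, and the adjusted p of each was 0.418 to 0.428. Without the LP day 21 rat 6a, Csn3 was 1.89 and Csn1s1 1.02 higher in LP rats, and without the NP day 21 rat 4a Wap was 0.52 higher.

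Between day 21 and day 28, Csn3 was the member that differed most. Averaged over the diets it was 2.06 ± 0.88 (SE) higher at day 28, with a limma p of 0.0417 unadjusted and 0.24 adjusted and an exact permutation p of 0.055. Without the LP day 21 rat 7c it was 1.36. It was the only one of the 4 with an unadjusted p under 0.05, while 19.2% of all probes had one. After adjustment 0 of the 4 passed, against 1.81% of all probes. Within the NP rats the 2 days did not overlap for Csn3 (-4.65 to -3.38 against -2.88 to 0.01), alone of the 4 genes, where 11.7% of all probes were higher at day 28 without overlap. Among NP rats the Csn3 difference was 2.25 ± 1.25 (SE) and among LP rats 1.87 ± 1.25. In neither diet did any of the 4 genes reach an unadjusted p under 0.05, which 12.8% of all probes did among NP and 10.1% among LP rats. At the adjusted threshold the shares of all probes were 0.25% and 0%. Both diets' comparisons of days share the slides. These day differences are also differences between slides.

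The other members moved less between the days. Wap was 0.76 ± 0.43 (SE) higher at day 28, but 0.42 without the NP day 21 rat 4a and 0.50 without the LP day 21 rat 7c. Csn1s1 was 0.22 ± 0.45 higher, and Lalba was lower by -0.09 ± 0.33. The directions of Csn1s1 and Lalba changed with single rats. Csn1s1 was -0.03 without the NP rat 4a or the LP rat 7c of day 21. Lalba was 0.11 without the LP rat 6a, 0.09 without the NP rat 5a and 0.03 without the NP day 28 rat 4f.

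The diet difference did not change detectably between the days. The change was between -0.52 and -0.01 for the 4 genes, whose 95% confidence intervals ran from -4.31 to 3.56 for Csn3 and from -1.98 to 0.93 for Lalba. In limma 0 of the 4 had an unadjusted p under 0.05, against 2.26% of all probes, and 0% of all probes passed after adjustment. The direction of the change was not stable for Csn1s1, Csn3 and Wap. Without the LP day 21 rat 6a it was 0.48, 1.09 and 0.01 in turn.

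Luminal epithelial markers moved with the milk protein genes. Of 12 such genes, 12 were higher in LP rats at each day, by a median of 0.86 at day 21 and 0.50 at day 28 on the log2 scale, with 0 passing the adjusted threshold and 4 (Ehf, Foxa1, Cldn7 and Cldn3) at an unadjusted limma p under 0.05 at day 21, where 4.36% of all probes passed. Without the LP day 21 rat 6a, 12 of 12 were still higher at day 21, by a median of 0.49, and the difference of the list's mean went from 0.91 to 0.48. At day 28 the difference of the mean was 0.52, and 0.23 without the NP rat 4f. Their mean per rat was -1.15 to 0.01 in NP and -0.59 to 1.05 in LP rats at day 21, and -1.05 to -0.08 in NP and -0.06 to 0.18 in LP rats at day 28. The rats with the lowest and the highest mean, NP 4a and LP 6a of day 21, were also the lowest and the highest for Csn1s1 and Lalba. Basal epithelial markers were higher in LP rats for 8 of 9 genes at day 21 and 7 of 9 at day 28. The difference of their mean was 0.65 at day 21, or 0.31 without the LP rat 6a. At day 28 it was 0.47, or 0.05 without the NP rat 4f. Only Tp63 had an unadjusted limma p under 0.05 at day 28, where 8.07% of all probes did, and it was lower in LP rats by -0.40 ± 0.14 (SE). Lymphocyte markers were lower in LP rats for 8 of 8 genes at both days, with group means of -2.43 in LP and -0.22 in NP rats at day 21. Without the rat 6a the LP mean was -0.54, and 7 of 8 were lower. Skeletal muscle markers were lower in 8 of 8 and 6 of 8, and their group means at day 21 were -0.81 in LP rats, or -2.73 without 6a, and 0.78 in NP rats. Single rats reversed this direction at both days. The muscle list's mean difference was -1.59 at day 21, but 0.53 without the LP rat 4a. At day 28 it was -0.60, but 0.76 without the LP rat 4f and 0.26 without the LP rat 7f. Leaving out any other rat kept it negative. Adipocyte markers differed by medians of 0.00 at day 21 and 0.03 at day 28. The part of lymphocyte and muscle RNA in the milk gene differences was not tested.

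Over the 12 rats, the Pearson correlation with the luminal mean was 0.96 for Csn1s1, 0.93 for Lalba, 0.80 for Wap, 0.77 for Csn1s2a and 0.75 for Csn3. Without the LP day 21 rat 6a it was 0.97, 0.88, 0.81, 0.78 and 0.66 in turn. The rats share 2 slides and the scaling to the array's own percentile, and these correlations are descriptions. Subtracting the luminal mean lowered the SD over the 12 rats from 0.64 to 0.24 for Lalba and from 0.99 to 0.43 for Csn1s1, but from 2.27 to 1.85 for Csn3.

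**Figure D2:**
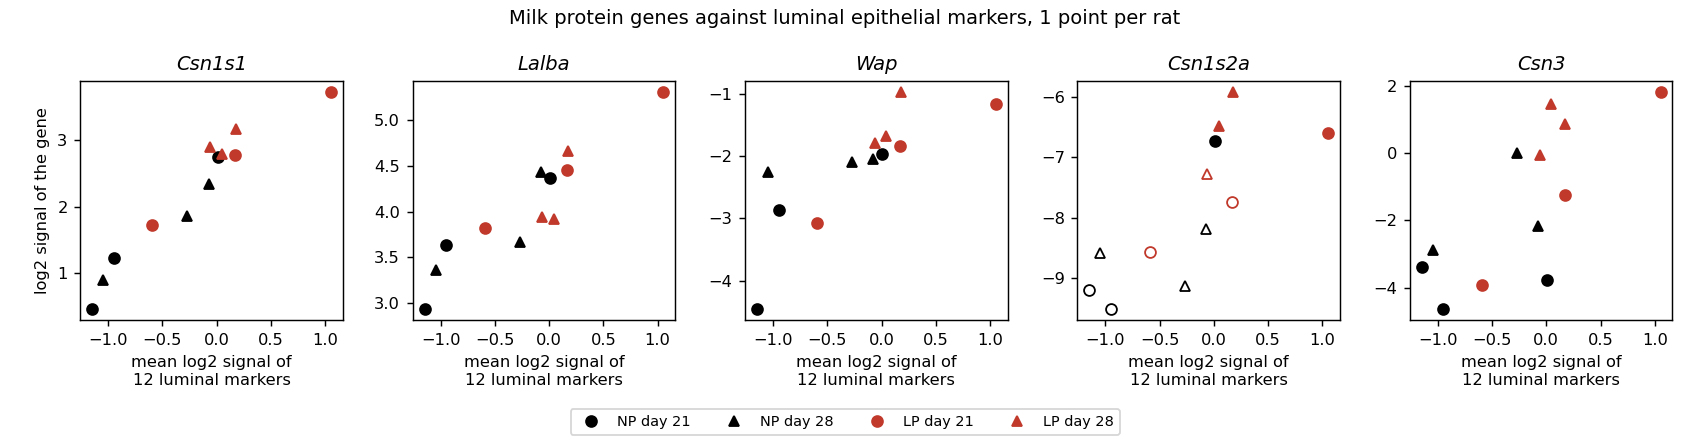
Log2 signal of each tested milk protein gene (vertical axis) against the mean log2 signal of 12 luminal epithelial markers (horizontal axis), 1 point per rat, with NP in black, LP in red, circles for day 21, triangles for day 28 and open symbols where the probe was not well above background. The Csn1s1 points lie close to a line (Pearson r = 0.96 over 12 rats), while the Csn3 points scatter (r = 0.75).

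With the luminal mean of each array subtracted before the fit, the diet difference of Lalba fell to -0.02 at day 21 and -0.16 at day 28, and that of Wap to 0.17 and 0.14. For Csn1s2a at day 28 the LP mean was then 1.58-fold higher than the NP detection limits, again not a strict lower bound. Csn1s1 gave 0.37 ± 0.49 and 0.74 ± 0.49. At day 28 its value relative to the luminal mean was 1.94, 2.42 and 2.13 in NP rats 4f, 5f and 6f and 2.76, 3.00 and 2.97 in LP rats 4f, 6f and 7f. The groups still did not overlap, but the share of all probes that did not overlap on this scale was not computed. Csn3 gave 1.91 ± 0.71 (SE) at day 21 and 1.92 ± 0.71 at day 28, but 0.86 at day 21 without the LP rat 6a. Its adjusted p in limma was 0.202 and 0.586, and 0.0996 over both days. The subtraction also moved the median of all tested probes to -0.90 at day 21 and -0.56 at day 28. Relative to the luminal mean, Csn3 was 2.02 ± 0.50 (SE) higher at day 28 than at day 21, with an adjusted p of 0.137 in limma. limma draws the SE of each probe towards those of the others. On this scale the SEs and p-values of Csn3 thus understate its own spread between rats. Its SD was 0.87 in NP day 21, 2.06 in LP day 21, 1.30 in NP day 28 and 0.71 in LP day 28 rats. For Csn1s1 it was 0.57, 0.19, 0.24 and 0.13 in turn, which its SE overstates.

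**Figure D3:**
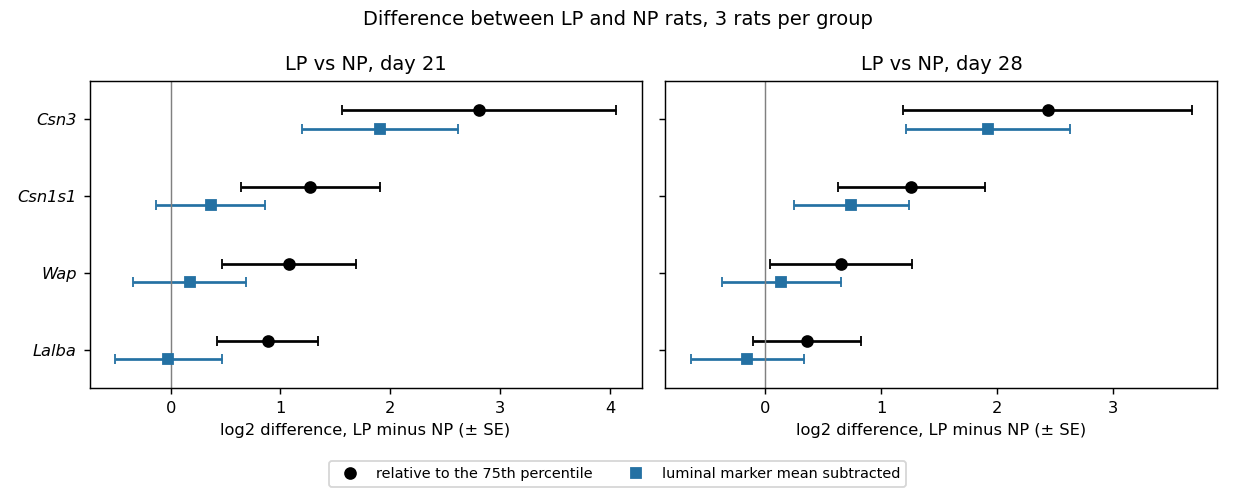
Log2 difference between LP and NP rats (LP minus NP, ± SE from limma) of the 4 milk protein genes detected in all rats at day 21 and day 28, 3 rats per group, on the scale relative to the 75th percentile (black circles) and with the mean of 12 luminal markers subtracted (blue squares). Lalba moves from 0.88 to -0.02 at day 21, and Csn3 from 2.81 to 1.91. The limma SEs are drawn towards those of other probes and understate the spread of Csn3, more so for the blue squares.

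The members also varied together within the groups. After the group means were removed, the correlation over 12 rats was 0.94 between Csn1s1 and Lalba, 0.88 between Csn1s1 and Wap and 0.88 between Lalba and Wap. For Csn3 it was 0.55 with Csn1s1, 0.48 with Lalba and 0.45 with Wap. Csn1s2a, mostly at background, gave 0.81 with both Csn1s1 and Lalba.

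The genes with the most similar pattern over the 12 rats were taken by Pearson correlation among the named genes tested. For Csn1s1 they were Sdc4, Tmc4, Epcam, Cdcp1 and Mapk11, with r between 0.97 and 0.98, and 159 genes had an r over 0.9. For Lalba they were Aldoc, Kctd8, Muc4, Sox10 and Lcn2 (r from 0.96 to 0.98), and 110 genes exceeded 0.9. Epcam encodes an epithelial adhesion molecule and Muc4 a membrane mucin. Wap had Fam83f, LOC100362601, LOC301193, Fer1l4 and Scgb2a1, with r from 0.91 to 0.93. Csn3 had Dynlrb1, Slc23a1, Pgrmc1, the transcript ENSRNOT00000043269 and Stoml2, with r from 0.91 to 0.92. For Csn1s2a the first were Bco2 and Enc1, at 0.95 and 0.93. The numbers of genes over 0.9 were 8 for Wap, 7 for Csn3 and 2 for Csn1s2a.

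Of 21 genes of prolactin signalling and milk gene regulation, all were tested, 11 were higher in LP rats at each day, and the median differences were 0.04 at day 21 and 0.01 at day 28. None passed the adjusted threshold in any of these comparisons. At an unadjusted limma p under 0.05 there were 0 at day 21, against 4.36% of all probes, and 1 at day 28, against 8.07%: Socs3, an inhibitor of cytokine receptor signalling that was lower in LP rats by -0.40 ± 0.17 (SE). Prlr, the prolactin receptor, was -2.93, -2.12 and -2.73 in NP rats 4a, 5a and 6a and -1.65, -1.04 and -2.53 in LP rats 4a, 6a and 7c of day 21. One LP rat lay among the NP rats. At day 28 Prlr was -3.50, -2.23 and -2.16 in NP rats 4f, 5f and 6f and -1.74, -1.80 and -1.76 in LP rats 4f, 6f and 7f. All LP rats were higher. The Prlr difference was 0.85 ± 0.42 (SE) at day 21 and 0.87 ± 0.42 at day 28, with adjusted p-values of 0.861 and 0.581 in limma. It was 0.50 at day 21 without the LP rat 6a and 0.43 at day 28 without the NP rat 4f.

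Elf5, an epithelial transcription factor of the alveolar lineage, differed by 0.64 ± 0.53 (SE) at day 21, or 0.20 without the LP rat 6a, and 0.01 ± 0.53 at day 28. Stat5a, which carries the prolactin signal to the nucleus, differed by 0.17 ± 0.12 and -0.09 ± 0.12. Across the 12 rats the correlation with Elf5 was 0.93 for Lalba, 0.83 for Wap, 0.80 for Csn1s1 and 0.42 for Csn3. That with Prlr was 0.93 for Csn1s1, 0.82 for Lalba, 0.75 for Csn3 and 0.69 for Wap. Those with the luminal mean were 0.96 for Csn1s1, 0.93 for Lalba, 0.80 for Wap and 0.75 for Csn3. What underlies these correlations was not tested. Between the days, 3 of the 21 regulators were higher at day 28 and 4 lower at an unadjusted p under 0.05, where 19.2% of all probes passed, with 0 after adjustment, where 1.81% did. The lowest p was that of Cav1, encoding caveolin-1, which was lower at day 28 by -0.44 ± 0.12 (SE, adjusted p = 0.0943).

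**Figure D4:**
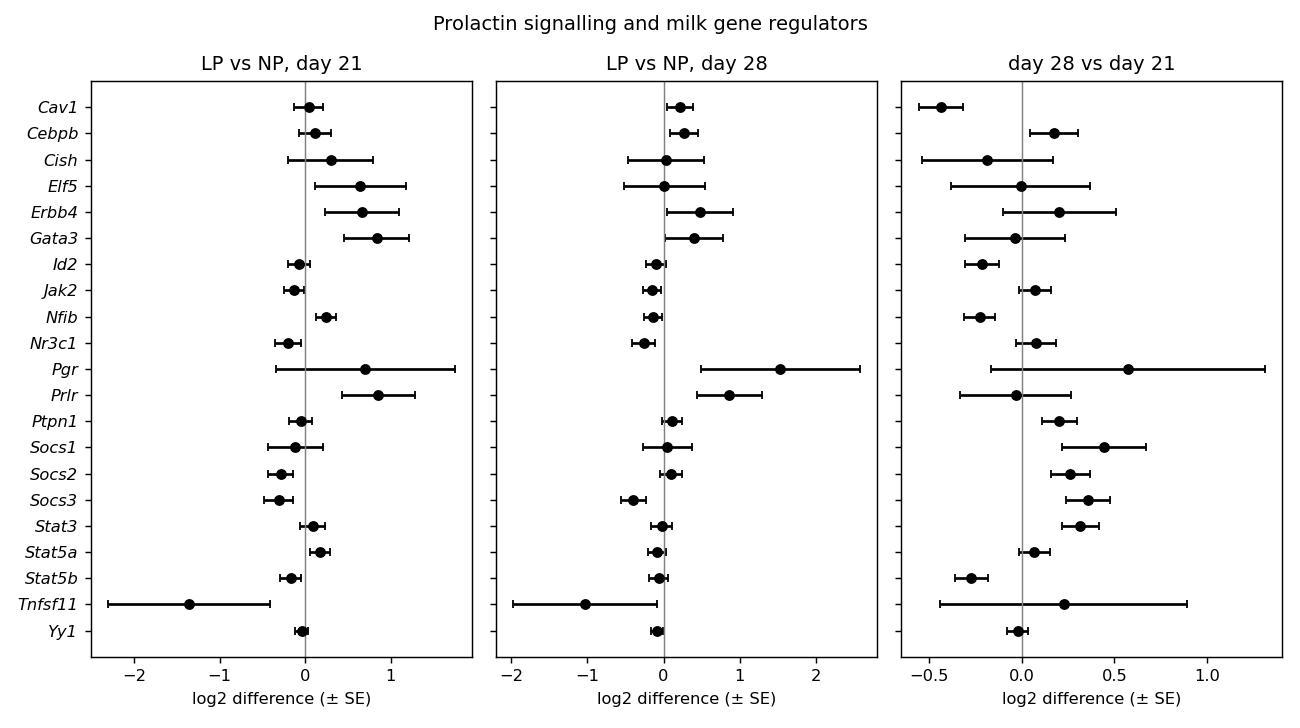
Log2 differences (± SE from limma) of 21 genes of prolactin signalling and milk gene regulation for LP against NP at day 21 and day 28 and for day 28 against day 21, with 3 rats per group. Prlr was 0.85 and 0.87 higher in LP rats, and Cav1 lay at -0.44 between the days.

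Of 21 other genes of milk secretion, 20 were tested, and 13 were higher in LP rats at day 21 and 14 at day 28, with medians of 0.17 and 0.06 on the log2 scale. None passed the adjusted threshold. At an unadjusted limma p under 0.05 there was 1 of 20 at day 21, against 4.36% of all probes, and 0 at day 28, against 8.07%. The gene at day 21 was Cel, encoding the bile salt-stimulated lipase of milk, which was 0.91 ± 0.39 (SE) higher in LP rats, or 0.58 without the rat 6a. Ltf, the iron-binding whey protein lactoferrin, was -1.06 ± 0.48 (SE) lower in LP rats at day 21 and -0.56 ± 0.48 at day 28. B4galt1, the partner of Lalba in lactose synthase, differed by 0.09 ± 0.22 and 0.17 ± 0.22. Between the days, 1 gene was higher at day 28 and 1 lower at an unadjusted limma p under 0.05, where 19.2% of all probes passed. After adjustment it was 0, where 1.81% did. Fabp3, a fatty acid-binding protein, was lower at day 28 by -1.22 ± 0.45 (SE, adjusted p = 0.184 in limma). Pigr, the transporter of antibodies into milk, was higher by 1.04 ± 0.41 (adjusted p = 0.209 in limma).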

How the data were processed

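The authors deposited the Agilent Feature Extraction 10.7.3.1 output of each array, whose processed intensity had the background subtracted and trends within the array corrected, with no scaling between arrays. They also deposited the processed signals as a ratio to the median of each array. The 4259 control spots and, on each array, 259 to 766 outlier spots were dropped. Signals were taken as log2 relative to the array's 75th percentile (1451.4 to 2369.6), and spots of a probe were averaged. limma 3.58.1 (R 4.3.3) was fitted once over the 4 groups, to probes detected (0.5 or more of the spots well above background) in 3 or more of the 12 rats, with Benjamini-Hochberg adjustment over 23209 probes. The number of arrays limits the precision. Groups and rat names follow the sample labels. Where no rat of a group was detected, the Results give no difference. Between LP and NP rats they give in its place a fold over the arrays' detection limits, which is not a strict lower bound. Such differences appear only where the dependence on the processing is described. Exact permutation tests were two-sided.

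Every member probe was named. Of the other lists the genes passing an adjusted p of 0.05 or the lowest unadjusted p-values were named, with Elf5, Stat5a and Prlr always, and the 5 most similar genes per member. B4galt1, Cldn3, the genes beside the casein cluster and the markers given as examples were named outside this rule. The members, lists and tests were chosen with earlier results of these data known. Alternatives were quantile normalization, normexp (offset 50), no filter, all 12 arrays above background, the arrays of the day, an intensity trend with robust estimation, number and row blocks, the deposited table, subtraction of the luminal mean and leaving out each array. The fit was tested on simulated data. Sequences came from the array files and RefSeq. Figures were drawn with matplotlib 3.10.9.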

Additional observations from a re-analysis of the deposited data

How the results depend on the processing

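The count of milk protein genes passing an adjusted p of 0.05 was 0 in every comparison under all alternatives, and the fitted diet differences of the 5 tested genes stayed positive except with the luminal mean subtracted. That setting gave -0.0597 for Csn1s2a at day 21, and -0.0227, -0.157 and -0.09 for Lalba at day 21, at day 28 and over both days. It gave changes between the days of 0.38 for Csn1s1 and 0.0138 for Csn3, and NP day differences of -0.0042 for Csn1s1 and -0.0584 for Lalba. Normexp gave a change of 0.24 for Csn1s1, and NP day differences of -0.0067 for Csn1s1 and 0.23 for Csn1s2a. Leaving out 1 array at a time, the day difference ran from -0.0332 to 0.54 for Csn1s1 and from -0.27 to 0.11 for Lalba. Among NP rats it ran from -0.28 to 0.86 for Csn1s1, -0.67 to 0.73 for Csn1s2a and -0.18 to 0.54 for Lalba, and among LP rats from -0.29 to 0.71 for Csn1s1 and -0.70 to 0.0408 for Lalba. The change between the days ran from -0.65 to 0.50 for Csn1s1, -1.78 to 1.09 for Csn3 and -0.99 to 0.26 for Wap. The Csn1s2a values among NP rats rest on signals at background, and its fitted diet differences rest in part on such signals. The causes were not tested.

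The deviations of same-numbered rats from the group means correlated at over 0.1 in 4 of 6 pairs of a diet, against 0 of 12 differently numbered pairs (highest 0.0665). For pairs of a day it was 1 of 4 against 2 of 14 (highest 0.2111). For pairs differing in both it was 3 of 4 against 2 of 14 (highest 0.1974). Not every pair exceeded 0.1, so the numbers were not taken as pairing the rats. This rule cannot exclude shared litters, and the main comparisons of the days treat the rats as independent. A shared source was not tested. The replicate block was the number in the label, taken across both diets. Some numbers occur in only 1 diet, so diet differences with it rest on the numbers that both diets share. With the replicate block, the diet differences of Lalba were 1.45 at day 21 and 0.93 at day 28 and those of Csn1s1 2.02 and 2.01, and the count of members passing stayed at 0. The replicate block took the calls between the days over all probes from 421 to 209, no filter to 217, and normexp to 271. With diet and number together as a random block (correlation 0.0266) there were 475. With the slide row as a covariate, the Csn3 difference between the diets was 2.72 at day 28. Signals near background limit Csn1s2a and Csn2.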

Other observations

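Among the adipocyte markers, 1 of 7 tested genes passed the adjusted threshold between the days, against 1.81% of all probes. Retn, encoding the adipokine resistin, was 0.69 ± 0.13 (SE) higher at day 28, with an adjusted p of 0.0384 in limma. Lep, encoding leptin, was lower at day 28 by -0.85 ± 0.33 (SE), with an adjusted p of 0.209. These days were also the slides. Skin markers were lower at day 28 in 6 of 6 tested genes, with 0 passing after adjustment. Their mean was -3.32 in the NP rat 5a and -2.67 in the LP rat 6a of day 21. In the other rats of that day it was -7.00 to -6.23, much as in the day 28 rats (-7.06 to -6.38). Liver markers were lower in LP rats in 5 of 6 genes at day 21 and higher in 4 of 6 at day 28, with 0 passing.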
